A study of Mus musculus with 7 samples.

Results

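CXCL12, a chemokine that the study examines together with KRT19 as a coating of pancreatic ductal adenocarcinoma (PDA) cells, was followed here through the transcripts of 7 genes: its own gene, Cxcl12; its receptor genes Cxcr4 and Ackr3; Dpp4, for the peptidase that trims it; and Tgm1, Tgm2 and F13a1, for transglutaminases, the enzymes that crosslink proteins. The genes were taken by name from the CXCL12 axis and the transglutaminase family. Of their products, the study ties CXCL12 and TGM2 to the exclusion of T cells, and it proposes that CXCR4 takes part through a stop signal. It proposes F13a1, present in all its PDA tumors, as a possible source of a residual coating that it holds less relevant. The 7 genes, out of 22629 in the count table, all had enough counts to be tested. RNA was sequenced from s/c tumors taken 2 weeks after the cells were inoculated, 3 formed with sgScramble control PDA cells (tumors 1, 4 and 5) and 4 formed with sgScramble PDA cells that express icOVA, an ovalbumin that stays in the cytoplasm (tumors 15, 16, 18 and 2). All tumors were formed with 1242 KPC cells, a PDA line from the tumor of a genetically engineered mouse with Pdx1-Cre, injected into the right flank of C57BL/6 mice that were bought at 6 weeks of age and housed for 2 weeks. Cells of both groups carried a lentivirus with SpCas9 and a scrambled guide. The icOVA cells carried a doxycycline (Dox)-inducible ovalbumin vector with GFP and had been sorted and cloned from single cells. Their hosts received Dox in the food from the day of inoculation. The sources used here do not say whether the sgScramble cells of these tumors were a clone or whether their hosts received Dox, so the antigen, the clone and Dox cannot be told apart.

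CXCL12 is made mainly by fibroblasts and endothelial cells and signals through CXCR4, a G protein-coupled receptor of leukocytes that directs their migration. ACKR3 binds the same chemokine, recruits arrestins and takes CXCL12 up, so that it acts as a scavenger. Transglutaminases join a glutamine of one protein to a lysine of another, and a catalytic cysteine carries the acyl group between them. TGM2 is the widely expressed tissue enzyme, TGM1 builds the cornified envelope of keratinocytes, and F13A1 is the catalytic subunit of coagulation factor XIII, which stabilizes fibrin and is made by megakaryocytes, monocytes and macrophages.

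The parts of the transcripts that encode these activities are shown to mark what the genes share, read from the GENCODE M21 annotation on GRCm38, 5′ to 3′ on the coding strand, with the introns left out. For Cxcl12 the run covers codons 1 to 36 (exons 1 and 2 of the transcript that encodes 89 residues, chr6:117168656-117171528, plus strand), and capitals mark codons 22 and 23, the lysine-proline pair that DPP4 removes from the N terminus of the mature chemokine. For the transglutaminases each run covers 27 codons around the catalytic cysteine, whose codon is in capitals: codons 363 to 389 of Tgm1 (exons 7 and 8, chr14:55709011-55709463, minus strand), 264 to 290 of Tgm2 (exons 6 and 7, chr2:158129448-158131400, minus strand) and 302 to 328 of F13a1 (exons 7 and 8, chr13:36944019-36946512, minus strand).
Cxcl12: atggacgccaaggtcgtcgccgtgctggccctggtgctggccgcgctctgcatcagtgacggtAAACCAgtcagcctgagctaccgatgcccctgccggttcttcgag
Tgm1: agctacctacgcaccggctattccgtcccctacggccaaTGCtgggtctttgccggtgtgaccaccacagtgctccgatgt
Tgm2: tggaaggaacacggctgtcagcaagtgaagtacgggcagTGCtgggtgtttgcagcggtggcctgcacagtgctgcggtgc
F13a1: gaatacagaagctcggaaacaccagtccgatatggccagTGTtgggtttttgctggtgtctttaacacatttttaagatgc
Around the cysteine, Tgm1 and Tgm2 share 49 of 81 bases, Tgm1 and F13a1 share 48, and Tgm2 and F13a1 share 39, and the encoded stretches share 15, 16 and 14 of 27 residues. Over their whole proteins the same pairs are 39.5%, 44.8% and 38.7% identical, and the receptors CXCR4 and ACKR3 are 28.3% identical. None of the 7 genes had the same counts as another row of the table. The 3 coding transcripts of Cxcl12, which encode 89, 93 and 119 residues, share the 267 bases after the start of translation, and counts per gene do not separate them.

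The deposited values are raw read counts per gene, with totals of 30904855 to 37510591 per tumor. They are given below as CPM, the count per 1000000 of a library size scaled by TMM. The quasi-likelihood test of edgeR gave the p values, adjusted over the 17489 genes tested by the Benjamini-Hochberg method, with a threshold of 0.05. OVA counts checked the labels, with 85 to 151 in sgScramble tumors and 3413 to 10750 in icOVA tumors. The source of the OVA counts in sgScramble tumors was not tested. Across all genes tested, 588 (3.36%) were called higher and 444 (2.54%) lower in icOVA tumors, or 631 and 199 with each tumor scaled to Tbp. The epithelial markers had 2877 to 4789 CPM in sum in the 7 tumors, and none was at 0 throughout. Summed fibroblast markers were high in sgScramble tumor 4 (15962 CPM) and icOVA tumors 15 and 18 (26928 and 37088 CPM) and lay between 5775 and 9358 CPM in the other 4 tumors. Skeletal muscle markers were low in sgScramble tumor 5 and icOVA tumor 2, at 2.56 and 1.90 CPM in sum.

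F13a1 was the 1 gene of the 7 that rose in icOVA tumors by edgeR's test, 2.14-fold. Dpp4 and Cxcr4 did not overlap between the groups either, with every icOVA tumor above, by 2.65-fold and 1.41-fold in the fit, and did not pass the threshold. The ligand gene Cxcl12 had a fold of 2.46 with wide variation inside each group, and Tgm1, Tgm2 and Ackr3 overlapped between the groups. Of the 7 genes, 1 was thus called, where 5.9% of all genes tested were called in either direction and 3.36% as higher, and 3 did not overlap in the higher direction, where 11.3% of all genes did. None was called lower, where 2.54% of all genes were, nor at an unadjusted p under 0.05, nor by DESeq2 or limma-voom. An unadjusted p under 0.05 was reached by 4 of the 7, against 27.2% of all genes. The median log2 fold change was 0.53 over the 7 genes and -0.0048 over all genes. The RNA is of whole tumors, so more cells of a type and more RNA per cell cannot be told apart in any of these values.

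**Figure D1:**
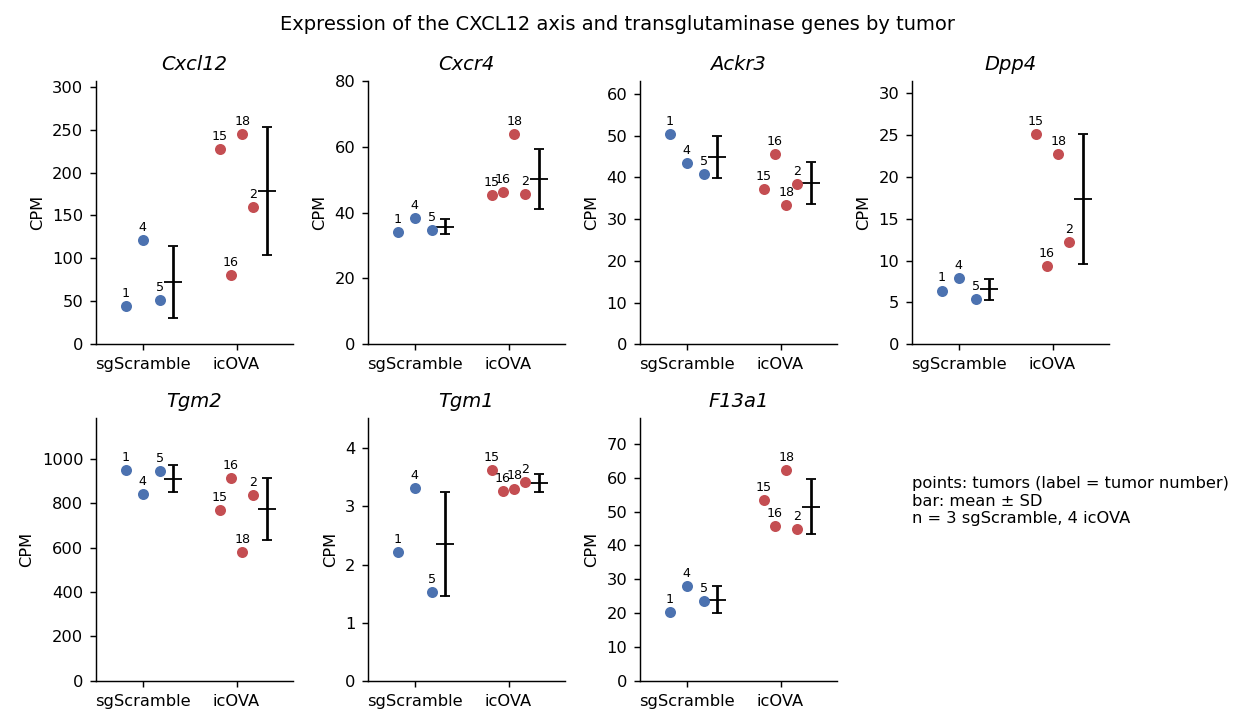
CPM of the 7 genes (vertical axes, each from 0) in the 3 sgScramble tumors (blue) and the 4 icOVA tumors (red), labelled by tumor number, with the mean ± SD as a bar. Cxcr4, Dpp4 and F13a1 do not overlap between the groups, and Cxcl12, Ackr3, Tgm2 and Tgm1 do.

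Cxcl12, the gene of the chemokine itself (chr6:117168535-117181367, plus strand), had 44.9, 121 and 51.1 CPM in sgScramble tumors 1, 4 and 5. It had 228, 80.9, 245 and 160 CPM in icOVA tumors 15, 16, 18 and 2. The groups overlapped at 2 tumors: icOVA tumor 16 lay below sgScramble tumor 4. The means were 72.4 ± 42.4 CPM (SD, n = 3) and 178 ± 74.7 CPM (SD, n = 4), and the highest tumor exceeded the lowest 2.70-fold within the sgScramble group and 3.03-fold within the icOVA group. The log2 fold change was 1.30 (SE 0.47, 95% interval 0.21 to 2.39), with an edgeR adjusted p of 0.127. Without sgScramble tumor 4 it was 1.90 and passed the threshold (edgeR adjusted p = 0.0491). The tumors with the most Cxcl12 in each group, sgScramble tumor 4 and icOVA tumors 15 and 18, were the 3 with the most fibroblast marker RNA.

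Cxcr4, whose product is the signaling receptor (chr1:128588199-128592293, minus strand), had 34.1, 38.3 and 34.7 CPM in sgScramble tumors 1, 4 and 5. In icOVA tumors 15, 16, 18 and 2 it had 45.4, 46.2, 64.1 and 45.7 CPM. All icOVA tumors lay above all sgScramble tumors, and tumor 18 lay apart from the other 3, which differed among themselves by less than 1 CPM. The means were 35.7 ± 2.29 CPM (SD, n = 3) and 50.4 ± 9.13 CPM (SD, n = 4), and the log2 fold change was 0.50 (SE 0.14, 95% interval 0.18 to 0.81, edgeR adjusted p = 0.0719). Without icOVA tumor 18 the difference was smaller, at 0.36, and passed the threshold (edgeR adjusted p = 0.0371), as it did with DESeq2 on all tumors (0.51, adjusted p = 0.0128).

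Ackr3, for the scavenging receptor (chr1:90203980-90216751, plus strand), lay in the opposite direction. It had 50.5, 43.4 and 40.9 CPM in sgScramble tumors 1, 4 and 5. The icOVA tumors 15, 16, 18 and 2 had 37.3, 45.5, 33.4 and 38.5 CPM. Tumor 16 of the icOVA group lay above sgScramble tumors 4 and 5, and the other 3 icOVA tumors lay below all sgScramble tumors. The log2 fold change was -0.22 (SE 0.12, edgeR adjusted p = 0.287), and its 95% interval ran from -0.50 to 0.064. Without sgScramble tumor 1 it was -0.12 (edgeR adjusted p = 0.663).

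Dpp4 (chr2:62330073-62412231, minus strand) encodes dipeptidyl peptidase 4, also known as the T cell surface protein CD26, which inactivates CXCL12 by removing the lysine-proline pair marked above. It had 6.42, 7.87 and 5.40 CPM in sgScramble tumors 1, 4 and 5 and 25.2, 9.34, 22.7 and 12.2 CPM in icOVA tumors 15, 16, 18 and 2. Every icOVA tumor was above every sgScramble tumor, the closest pair being icOVA tumor 16 and sgScramble tumor 4. The icOVA group fell into a higher pair, tumors 15 and 18, and a lower pair, tumors 16 and 2. The means were 6.56 ± 1.24 CPM (SD, n = 3) and 17.4 ± 7.74 CPM (SD, n = 4), and the log2 fold change was 1.40 (SE 0.36, 95% interval 0.56 to 2.25, edgeR adjusted p = 0.0624). It passed the threshold without icOVA tumor 16 (1.61, edgeR adjusted p = 0.0257) and with DESeq2 (1.41, adjusted p = 0.00157). Exons of Dpp4 overlap those of Gm13561 on the other strand, and the sources used here do not say whether the counting used strand, so reads of the 2 genes cannot be told apart.

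**Figure D2:**
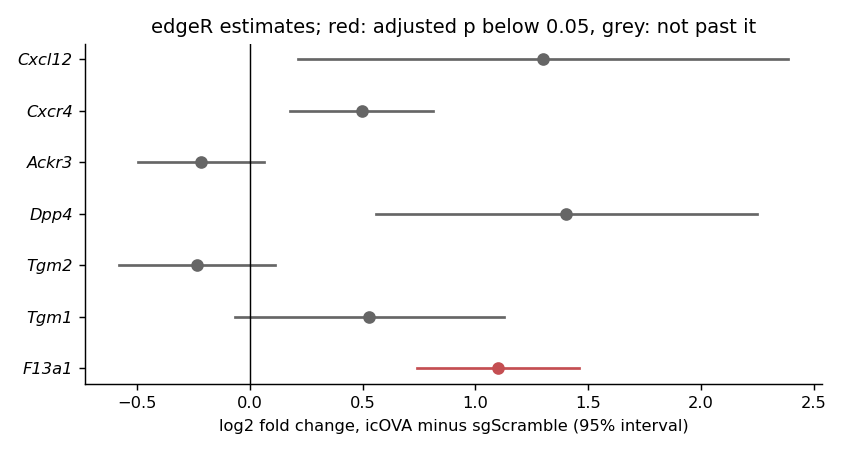
Log2 fold change of icOVA over sgScramble tumors (horizontal axis) for each gene from edgeR, with its 95% interval as a line (n = 3 and 4 tumors); red marks an adjusted p below 0.05. The intervals of Ackr3, Tgm2 and Tgm1 cross 0, and F13a1, with a narrower interval than Cxcl12 and Dpp4 at a lower estimate, is the gene called.

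Tgm2 (chr2:158116402-158146436, minus strand), the tissue transglutaminase that the study edits in other experiments, was abundant in every tumor. It had 947, 840 and 943 CPM in sgScramble tumors 1, 4 and 5, and 769, 911, 582 and 834 CPM in icOVA tumors 15, 16, 18 and 2. The icOVA tumors other than 16 lay below all sgScramble tumors, tumor 18 lowest. The means were 910 ± 60.4 CPM (SD, n = 3) and 774 ± 141 CPM (SD, n = 4), and the log2 fold change of -0.23 (SE 0.15, 95% interval -0.58 to 0.11) was not past the threshold (edgeR adjusted p = 0.346). Tumor 18 was also the tumor with the least epithelial marker RNA, at 2877 CPM in sum against 4360 to 4789 CPM in the other 6. Without tumor 18 the log2 fold change of Tgm2 was -0.12 (edgeR adjusted p = 0.471).

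Tgm1 (chr14:55700009-55713926, minus strand), the keratinocyte enzyme, was expressed at a low level, with 48 to 134 counts per tumor. It had 2.22, 3.31 and 1.53 CPM in sgScramble tumors 1, 4 and 5 and 3.62, 3.27, 3.31 and 3.42 CPM in icOVA tumors 15, 16, 18 and 2. The icOVA tumors were nearly alike, and sgScramble tumor 4 reached their level while tumors 1 and 5 did not. The means were 2.35 ± 0.896 CPM (SD, n = 3) and 3.40 ± 0.158 CPM (SD, n = 4), and the log2 fold change was 0.53 (SE 0.26, edgeR adjusted p = 0.229). It moved to 0.86 without sgScramble tumor 4 (edgeR adjusted p = 0.0568) and to 0.31 without sgScramble tumor 5 (edgeR adjusted p = 0.516).

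F13a1 (chr13:36867178-37050244, minus strand), for the factor XIII subunit, had 20.3, 28.1 and 23.7 CPM in sgScramble tumors 1, 4 and 5. It had 53.4, 45.6, 62.2 and 44.7 CPM in icOVA tumors 15, 16, 18 and 2. The lowest icOVA tumor stood well above the highest sgScramble tumor, and the gene varied little within either group, 1.38-fold and 1.39-fold from the lowest to the highest tumor. The means were 24.0 ± 3.90 CPM (SD, n = 3) and 51.5 ± 8.13 CPM (SD, n = 4). The log2 fold change of 1.10 (SE 0.16, 95% interval 0.74 to 1.46) passed the threshold (edgeR adjusted p = 0.0230), and by p the gene ranked 81 of 17489. Leaving out 1 tumor kept the log2 fold change between 0.99 and 1.23, but the call was lost without sgScramble tumor 1 (0.99, adjusted p = 0.114), sgScramble tumor 5 (1.09, 0.123), icOVA tumor 15 (1.09, 0.0745) or icOVA tumor 2 (1.17, 0.0614). In the same 4 fits the genes called higher among all those tested numbered 0, 0, 0 and 6. As for Dpp4, exons of F13a1, Tgm1 and Tgm2 overlap genes on the other strand (Gm30489 for F13a1, Gm49067 for Tgm1, Gm20412 and Rprd1b for Tgm2).

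Levels of different genes were compared as CPM per kb of exon, over the merged exons of each gene. Tgm2 was by far the highest, with 198 ± 13.1 CPM per kb (SD, n = 3) in sgScramble tumors and 168 ± 30.5 (SD, n = 4) in icOVA tumors. Cxcr4 followed with 19.8 ± 1.27 and 27.9 ± 5.05 CPM per kb, and Cxcl12 with 8.86 ± 5.18 and 21.8 ± 9.14 CPM per kb. These 2 genes were apart in sgScramble tumors, but their ranges overlapped in icOVA tumors, where Cxcr4 was the higher in 3 of 4. This order depends on the length: per kb of the longest transcript, Cxcl12 was the higher in 3 of 4 icOVA tumors and in 1 of 3 sgScramble tumors, and the ranges overlapped in both groups. Ackr3 had 13.4 ± 1.49 and 11.6 ± 1.51 CPM per kb. Its range overlapped that of Cxcl12 in both groups, and the order of the means turned: Cxcl12 was the higher of the pair in 1 of 3 sgScramble tumors and in 3 of 4 icOVA tumors. F13a1 (3.57 ± 0.578 and 7.64 ± 1.21 CPM per kb) lay below Ackr3 in every tumor, but with the longest transcript it lay above Ackr3 in 2 of 4 icOVA tumors. Dpp4 (1.04 ± 0.196 and 2.75 ± 1.23 CPM per kb) and Tgm1 (0.745 ± 0.283 and 1.08 ± 0.0499 CPM per kb) were the lowest, with overlapping ranges in sgScramble tumors and separate ranges in icOVA tumors.

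**Figure D3:**
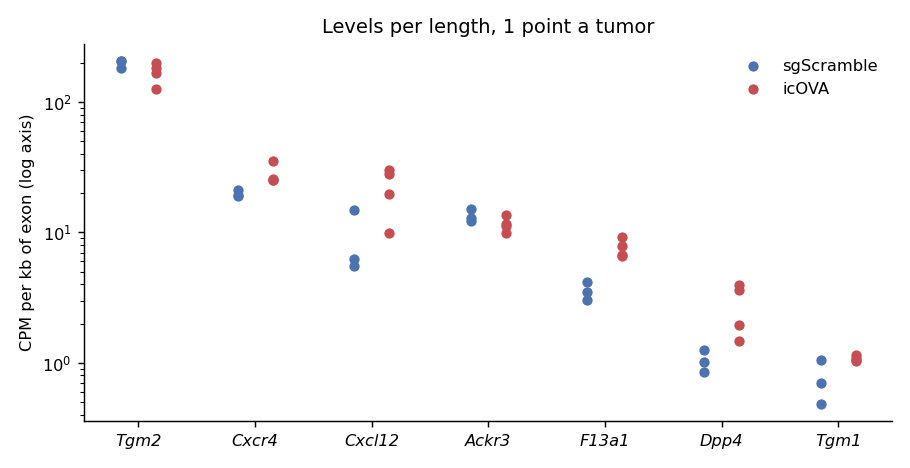
CPM per kb of exon (log axis) of the 7 genes, ordered by their mean over all tumors, with 1 point for each sgScramble tumor (blue) and each icOVA tumor (red). Tgm2 lies at 126 to 206 CPM per kb in all tumors, and no other gene exceeds 35.4.

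The balance among the 3 transglutaminases was on the side of Tgm2 throughout. Per length, Tgm2 exceeded F13a1 by 68.3, 43.8 and 58.1-fold in sgScramble tumors 1, 4 and 5, and by 21.1, 29.2, 13.7 and 27.3-fold in icOVA tumors 15, 16, 18 and 2. The ratio was thus lower in every icOVA tumor, on average 22.8 ± 7.01 (SD, n = 4) against 56.7 ± 12.3 (SD, n = 3). Of the summed level of the 3 genes per length, F13a1 made up 1.78% ± 0.399 (SD, n = 3) in sgScramble tumors and 4.52% ± 1.58 (SD, n = 4) in icOVA tumors. The ratio contains the F13a1 values already tested above and received no test of its own. With the longest transcript as the length, the ratio averaged 42.6 and 17.1.

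Each gene except Tgm1 was then set beside markers of a cell type known to express it. The value was its log2 CPM minus the mean log2 CPM of the tested markers. Tumors of the groups were set against each other in exact permutation tests (two-sided), whose smallest possible p is 0.0571. F13a1 stood at -2.62 ± 0.0256 (SD, n = 3) relative to monocyte and macrophage markers in sgScramble tumors and at -2.21 ± 0.0814 (SD, n = 4) in icOVA tumors, higher in 4 of 4 by a mean of 0.40 (exact permutation p = 0.0571, 0.114 after Benjamini-Hochberg adjustment over the 6 relations computed). With the median of the list in place of its mean, the difference was 0.78 (adjusted 0.171). Those markers summed to 2146 to 2943 CPM in sgScramble tumors and 3748 to 5179 CPM in icOVA tumors, and of the 9, Lyz2, Cd68 and Ly6c2 rose (edgeR). The platelet and megakaryocyte markers, of which 0 of 5 tested passed the threshold with edgeR (1 at an unadjusted p under 0.05, 1 with DESeq2, 0 with limma-voom), summed to 11.2 to 16.4 and 12.9 to 34.1 CPM. The part of either cell type in the F13a1 level was not tested beyond these values.

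Cxcl12 relative to fibroblast markers was higher in 4 of 4 icOVA tumors, by a mean of 0.67 (-2.49 ± 0.265, SD, n = 3, against -1.83 ± 0.415, SD, n = 4, exact permutation p = 0.0571, adjusted 0.114). The closest tumors, sgScramble tumor 4 and icOVA tumor 18, were almost level at -2.27 and -2.26. The 8 fibroblast markers all had positive log2 fold changes, from 0.36 to 1.31 with a median of 0.92, and varied widely among the tumors of a group. None of them passed the threshold with edgeR, DESeq2 or limma-voom, and none had an unadjusted p under 0.05. Cxcr4 relative to T cell markers lay the other way, lower in 4 of 4 icOVA tumors by a mean of 0.72 on the log2 scale (1.61 ± 0.163, SD, n = 3, against 0.888 ± 0.297, SD, n = 4, exact permutation p = 0.0571, adjusted 0.114): the T cell markers summed to 95.5 to 146 CPM in sgScramble tumors and 197 to 310 CPM in icOVA tumors, and 7 of the 8 rose. For the other 3 relations the groups overlapped: Dpp4 relative to fibroblast markers differed by 0.63 (exact permutation p = 0.171, adjusted 0.206), Ackr3 relative to endothelial markers by -0.91 (exact permutation p = 0.171, adjusted 0.206) and Tgm2 relative to epithelial markers by -0.18 (exact permutation p = 0.343, adjusted 0.343). Dpp4 was not set beside T cell markers, although its product is also a T cell surface protein. Nor was Cxcr4 set beside markers of other leukocytes, although its product is a receptor of leukocytes in general. The Tgm2 value turned to 0.062 when the median of the list replaced its mean.

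**Figure D4:**
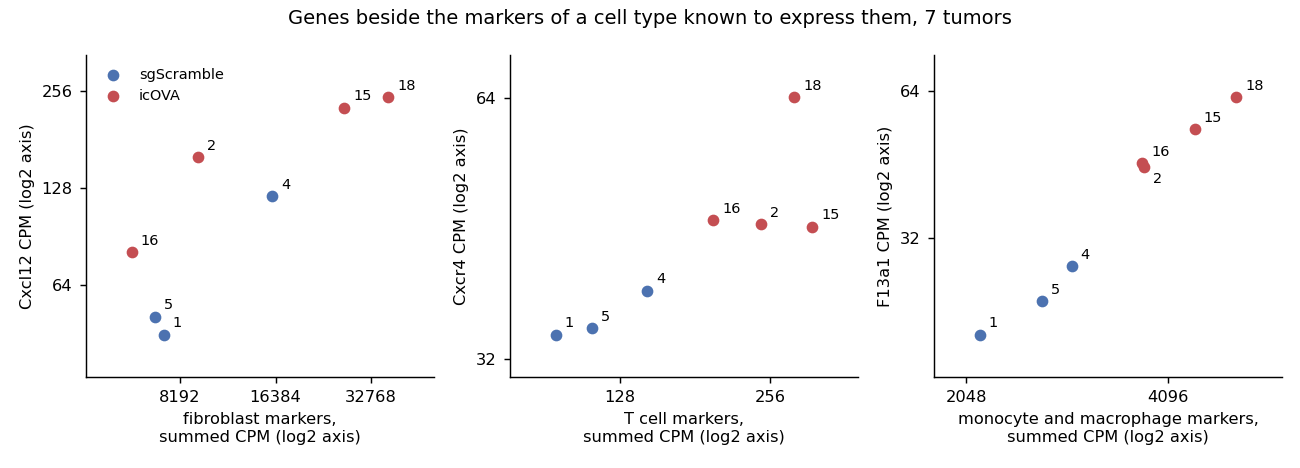
CPM of Cxcl12, Cxcr4 and F13a1 (vertical, log2 axes) against the summed CPM of fibroblast, T cell, and monocyte and macrophage markers (horizontal, log2 axes) in 3 sgScramble tumors (blue) and 4 icOVA tumors (red), labelled by tumor number. The groups are separate on both axes for Cxcr4 and F13a1, whereas for Cxcl12 they overlap on both, and icOVA tumor 18 stands above the other icOVA tumors in Cxcr4 without having the most T cell marker RNA.

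Other genes of the same pathways were counted by lists, 73 genes in all, of which 56 were tested. With edgeR, 6 of the 56 rose and 2 fell, where 3.36% of all genes tested rose and 2.54% fell. The median log2 fold change of the 56 was 0.14. The CXCR4 signal transduction list held 5 of the 6 that rose among its 14 genes, with a median log2 fold change of 0.69 and positive values for 13. Several of its genes are known mainly from hematopoietic cells, and leukocyte markers moved with the list: Ptprc, for the pan-leukocyte protein CD45, rose, with 116 to 175 CPM in sgScramble tumors and 258 to 363 CPM in icOVA tumors (log2 fold change 1.08, edgeR adjusted p = 0.0271), and the T cell markers had a median log2 fold change of 1.26. The part of leukocyte numbers in the list was not tested. Rgs1 and Rgs16, whose products shorten G protein signals, rose by 0.73 (SE 0.095) and 0.76 (SE 0.10), both with an adjusted p of 0.0230. Rgs1 had 15.5, 13.1 and 13.05 CPM in sgScramble tumors 1, 4 and 5 and 22.01 to 23.97 CPM in icOVA tumors. Vav1 and Rac2, a guanine nucleotide exchange factor and a GTPase of hematopoietic cells, rose by 0.86 and 0.99 (adjusted p = 0.0351 and 0.0411), and Arrb1, for a β-arrestin, by 0.32 (adjusted p = 0.0449). Gnai2 and Gnb1, subunits of the G protein that are expressed in most cells, had log2 fold changes of 0.22 and 0.064 and did not pass. No pathway gene was past the threshold without sgScramble tumor 1, sgScramble tumor 5, icOVA tumor 15 or icOVA tumor 2, and Arrb1 was not past it without sgScramble tumor 4 (0.34, adjusted p = 0.0560) or icOVA tumor 16 (0.29, adjusted p = 0.0569), nor Rac2 without icOVA tumor 18 (0.87, adjusted p = 0.0515). The log2 fold changes of the 5 genes were positive with each tumor left out, with Arrb1 lowest at 0.27.

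Among 8 tested proteases known to cleave CXCL12, Mmp3 rose and Cpn1 fell. Mmp3, for stromelysin-1, had 165, 186 and 96.8 CPM in sgScramble tumors 1, 4 and 5 and 309, 336, 346 and 337 CPM in icOVA tumors 15, 16, 18 and 2, a log2 fold change of 1.15 (SE 0.20, edgeR adjusted p = 0.0285). The icOVA tumors were close to each other and all above the sgScramble tumors. Cpn1, for the catalytic subunit of carboxypeptidase N, which trims the C terminus of chemokines in plasma, had 7.77, 3.43 and 6.71 CPM in sgScramble tumors and 1.43, 1.72, 0.575 and 2.18 CPM in icOVA tumors, and fell by 2.02 on the log2 scale (SE 0.44, edgeR adjusted p = 0.0422). Mmp2 and Mmp14 were highest in the same 3 tumors as the fibroblast markers. Mmp2 had 317 CPM in sgScramble tumor 4, 612 and 816 CPM in icOVA tumors 15 and 18 and 158 and 249 CPM in tumors 16 and 2. Its log2 fold change of 1.17 did not pass (edgeR adjusted p = 0.241).

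None of the other ligands and receptors of the axis was called with edgeR or limma-voom among 6 tested (1 at an unadjusted p under 0.05 and 1 with DESeq2, both Cd74). Cd74, which encodes the MIF receptor and the invariant chain of MHC class II, had a log2 fold change of 0.35 (edgeR adjusted p = 0.123), and Mif one of -0.14 (adjusted p = 0.420). The 6 peptidases related to DPP4 (0 called with edgeR, DESeq2 or limma-voom, 1 at an unadjusted p under 0.05) had a median of 0.14. Of the 8 cell surface proteoglycans, whose heparan sulfate chains bind CXCL12, none was called with edgeR, 3 had an unadjusted p under 0.05, DESeq2 called 3 and limma-voom 1. Sdc1, for syndecan-1, was lower in every icOVA tumor (363 ± 66.0 CPM, SD, n = 4, against 493 ± 33.5 CPM, SD, n = 3, edgeR adjusted p = 0.101), and Sdc3 was higher in every icOVA tumor (187 ± 16.1 against 124 ± 25.3 CPM, edgeR adjusted p = 0.0505).

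The partners and substrates of the transglutaminases were not called with edgeR apart from a fibrin gene. The 5 partners of TGM2 at the cell surface and in the matrix (0 called with edgeR, DESeq2 or limma-voom, 1 at an unadjusted p under 0.05) had a median log2 fold change of -0.066, and Fn1, for fibronectin, the most abundant, had 3585 ± 710 CPM (SD, n = 3) in sgScramble tumors and 2631 ± 459 CPM (SD, n = 4) in icOVA tumors (edgeR adjusted p = 0.157). Of the cornified envelope genes, 4 were tested and none was called with edgeR or limma-voom (2 higher and 1 lower at an unadjusted p under 0.05, 1 higher and 1 lower with DESeq2). Ivl, for involucrin, a substrate of TGM1, had 9.10, 3.74 and 4.76 CPM in sgScramble tumors 1, 4 and 5 and 24.0, 9.49, 9.61 and 21.0 CPM in icOVA tumors 15, 16, 18 and 2 (edgeR adjusted p = 0.0951). Evpl, for envoplakin, lay the other way, lower in every icOVA tumor at 7.27 ± 2.49 CPM (SD, n = 4) against 13.6 ± 2.69 CPM (SD, n = 3) (edgeR adjusted p = 0.102). Among the fibrin clot genes, Fga, for the fibrinogen α chain, had 85, 11 and 47 counts in sgScramble tumors and 1, 2, 0 and 4 counts in icOVA tumors and fell (edgeR adjusted p = 0.0313). DESeq2 also called Fga lower, and limma-voom did not. The keratin genes Krt19, Krt8 and Krt18 had log2 fold changes of 0.059, 0.10 and -0.11, and none was called by any of the 3 tools or had an unadjusted p under 0.05. Of the other transglutaminase family, Tgm4, Tgm5 and Epb42 were in the table with too few counts to test. Tgm3, Tgm6, Tgm7 and F13b were not found in the count table by symbol.

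**Figure D5:**
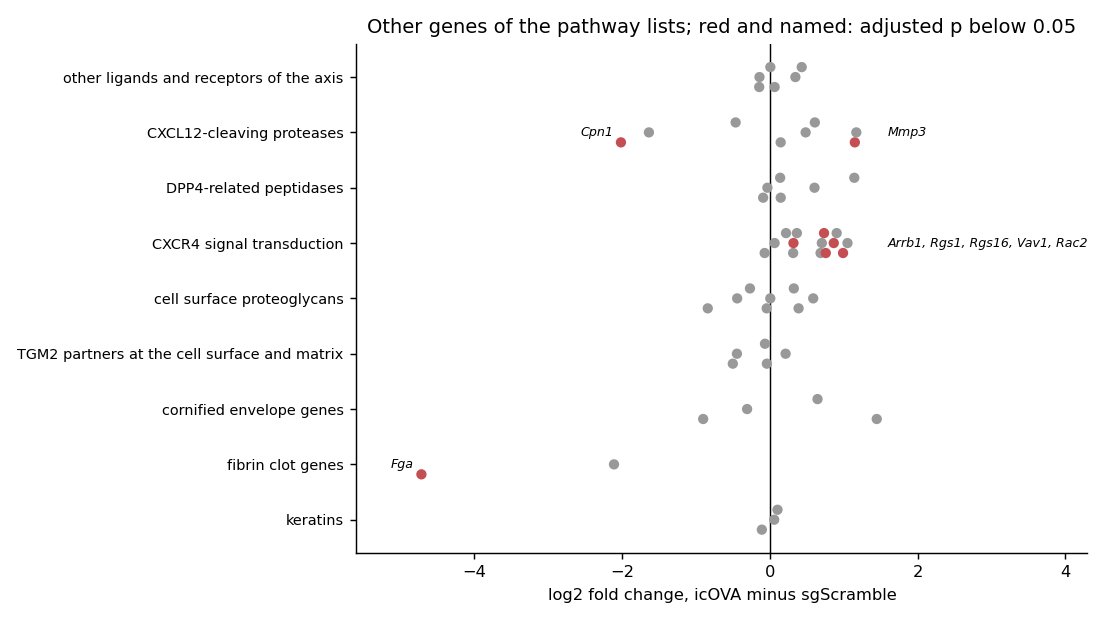
Log2 fold change of icOVA over sgScramble tumors (horizontal axis) for each of the 56 tested genes of the pathway lists (rows), 1 point a gene, spread vertically only for legibility. Red points, named beside the row, have an adjusted p below 0.05 with edgeR: 5 in CXCR4 signal transduction, Mmp3 and Cpn1 among the proteases, and Fga.

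The genes whose log2 CPM over the 7 tumors, centered on their mean, were nearest to those of each gene were sought among 14128 genes with a mean count of at least 50. Likeness is given as the root mean square (RMS) difference in log2 CPM and carries no test. Nearest to F13a1 were Sirpa, Scarf1 and Cd6, with RMS differences of 0.0772, 0.0869 and 0.0936 against an RMS of 0.575 for F13a1 about its own mean. Nearest to Cxcl12 were Serpina3n, Steap4 and Adam23 (0.114 to 0.139, against 0.913), and nearest to Dpp4 were Klrc2, Ubash3a and Trbc1 (0.118 to 0.141, against 0.796). Klrc2 and Trbc1 have near-identical copies that could share reads with them, so their own values are uncertain. The nearest to Cxcr4 were Dusp7, Dennd4b and Dpep2 (0.0338 to 0.0662, against 0.290), those to Tgm2 were Lrrc8d, Erlin2 and Tatdn1 (0.0292 to 0.0415, against 0.227), and those to Ackr3 included Zfp609 and 4930430F08Rik (0.0186 and 0.0306, against 0.183). Tgm1, with few counts, was nearest to Rarres2, Tnfsf14 and H2-Q10 (0.0916 to 0.121, against 0.412). No gene of the 7 was among the 3 nearest to another.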

How the data were processed

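RNA of 7 s/c tumors was sequenced, 3 sgScramble and 4 icOVA. The authors deposited raw counts per gene, whole numbers without normalization. The labels give polyA RNA and TruSeq libraries, whereas the methods give a TruSeq stranded total RNA kit with single reads of 76 bases. The submitters' processing notes name mm10, and the aligner, counter, annotation and use of strand are not given in the sources used here. Of 22628 Ensembl identifiers, 22414 matched a symbol in GENCODE M21 (GRCm38), the source of positions, lengths and coding sequences. Total counts ran from 30904855 to 37510591, and no pair of tumors had identical counts.

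After filterByExpr (minimum count 10, minimum total 15), genes were compared with edgeR 4.0.16 (TMM, quasi-likelihood, no covariates) in R 4.3.3, with Benjamini-Hochberg adjustment and a threshold of 0.05. A standard error is the log2 fold change divided by the square root of F. Log2 CPM used a prior count of 2. The fit was tested on simulated data. Alternatives were DESeq2 1.42.0, limma-voom (limma 3.58.1), total count, upper quartile and Tbp scaling, other filters, robust dispersion, removal of tissue markers and the 20 most abundant genes, a prior count of 0.5, list medians, another gene length, and leaving out each tumor. Exact permutation tests used scipy 1.17.1, and sequences were aligned with Biopython 1.88.

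The 7 genes and all lists were chosen with earlier results of these data known. The text names the 7 genes, OVA, the called or most abundant genes of each pathway list (at most 4, unless more were called), at most 3 of each marker list, and the 3 nearest genes in profile, of which 1 is not reported here. Cd68, Ly6c2 and Ptprc fall outside this rule and were named after their values were seen. The labels do not say that the tumors came from separate mice, so p values measure the spread between these samples.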

Additional observations from a re-analysis of the deposited data

Results flagged for a closer look

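Cxcr4 in icOVA tumor 18 stood far from the other icOVA tumors, at 6.00 log2 CPM against 5.51, 5.53 and 5.52 in tumors 15, 16 and 2. Its gap to the nearest tumor was 0.950 of the range of the group, past the critical value that Dixon's test sets for 4 samples. Of 55 measures examined in this way in the icOVA tumors, the log2 CPM of 48 genes, 6 values relative to markers and 1 ratio, it was the only one past the critical value, where chance alone gives about 1 in 20, or 2.75. Tumor 18 also had the most fibroblast, endothelial, and monocyte and macrophage marker RNA of the 7 tumors and the least epithelial marker RNA, and the part of these in the Cxcr4 value was not tested. Without it, Cxcr4 had 0.36 in place of 0.50 on the log2 scale and passed the threshold (edgeR adjusted p = 0.0371).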

How the results depend on the processing

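With all tumors in the fit, the log2 fold changes of the 7 genes kept their sign under every alternative test, scaling and filter, 61 of 63 on the same side of the threshold, and DESeq2 added the other 2, Cxcr4 and Dpp4. F13a1 then ran from 1.08 to 1.16 with adjusted p values of 1.9e-08 to 0.0258. With DESeq2 (343 adjusted p values NA), 3 of the 7 genes were called higher in place of 1, 14 other pathway genes were called higher in place of 6 and 6 lower in place of 2, and 1558 genes were called higher in place of 588 and 1278 lower in place of 444. Scaling to Tbp left 199 genes called lower, and at least 10 counts in every tumor left 1 pathway gene lower, since Fga was then not tested. Tgm2 relative to epithelial markers reversed with the list's median, from -0.18 to 0.062, and F13a1 relative to monocyte and macrophage markers moved from 0.40 to 0.78. With the median, Cxcl12 and Dpp4 relative to fibroblast markers moved from 0.67 to 0.47 and from 0.63 to 0.44. Ackr3 relative to endothelial markers moved from -0.91 to -0.65, and Cxcr4 relative to T cell markers from -0.72 to -0.77. The causes were not tested. Leaving out each tumor in turn gave 0 to 2 of the 7 genes called higher, none lower, 0 to 1014 genes higher and 0 to 716 lower, and 0 to 9 other pathway genes higher and 0 to 5 lower. The lowest counts came without sgScramble tumors 1 or 5 or icOVA tumors 15 or 2, with 2936 to 4008 genes at an unadjusted p under 0.05 against 4763 with all tumors, and without sgScramble tumor 4 or icOVA tumors 16 or 18, 2 of the 7 genes were called. The values relative to markers then ran from 0.49 to 0.81 for Cxcl12, 0.43 to 0.80 for Dpp4, -1.27 to -0.61 for Ackr3, -0.82 to -0.59 for Cxcr4, -0.27 to -0.079 for Tgm2 and 0.37 to 0.44 for F13a1, and the mean ratio of Tgm2 to F13a1 per length, 37.4 with all tumors, from 32.2 to 41.3. No paired analysis was possible because no tumor number occurs in both groups. Depth limits the values of Tgm1 and Fga, with at most 134 and 85 counts in a tumor.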

Other observations

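Of the 56 tested pathway genes, 12 were higher in every icOVA tumor, where 11.3% of all genes tested were. Another 6 were lower in every icOVA tumor, where 13.3% of all genes tested were. Among these 6, Fga, Cpn1 and Serpinf2 encode plasma proteins that are known mainly as products of the liver. Serpinf2, for the inhibitor of plasmin that factor XIII crosslinks to fibrin, had 4.17, 2.46 and 3.93 CPM in sgScramble tumors 1, 4 and 5 and 0.513, 1.003, 0.259 and 1.49 CPM in icOVA tumors 15, 16, 18 and 2. It did not pass the threshold with edgeR (adjusted p = 0.0535) and passed it with DESeq2 and limma-voom. The 3 genes were lowest in icOVA tumor 18 within their group. They were put together after their values were seen, no test was run on them as a group, and the other liver genes were not examined.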
